A study of Mus musculus with 15 samples.

Results

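Retained intron transcripts are annotated transcripts of a gene that keep all or part of a sequence which other transcripts of that gene splice out. The 3620 described here are the transcript rows listed in the files of all 15 libraries whose Ensembl transcript identifier has the biotype retained_intron in GENCODE M21, out of 29996 transcript rows listed in every file. They belong to 2409 genes, of which 1615 have 1 such transcript, 512 have 2 and 282 have 3 or more, with 7 at most. GENCODE M21 holds 21848 retained intron transcripts in all. A further 247 were listed in the Control and AngII files alone and 412 in the AngII+QDG files alone, and these were not analysed.

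The study sequenced rRNA-depleted total RNA from hearts of male C57BL/6 mice in 3 groups of 5 libraries. The Control mice carry no named agent in the labels, the AngII mice received angiotensin II (a pressor peptide), and the AngII+QDG mice received angiotensin II and the preparation that the labels call QDG. The design text counts 5 mice per group. The sources used here state no age, dose, duration or make-up of QDG, nor do they hold a table that ties each library to its own mouse, so p-values measure the spread between libraries. Levels are FPKM per transcript, fragment counts scaled for transcript length and library depth, and the share divides a transcript by its gene.

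Splicing removes introns from pre-mRNA, and a transcript that keeps one is often held in the nucleus or degraded through a premature stop codon, so intron retention can lower the amount of protein a gene makes. Genes for splicing factors, among them the SR proteins, which bind exons and recruit the spliceosome, and the hnRNPs, which bind pre-mRNA and often oppose them, commonly regulate themselves in this way. Because rRNA depletion keeps RNA without a poly(A) tail, such libraries also hold unspliced pre-mRNA. A fragment inside a kept intron does not tell these sources apart, nor, where the library kit keeps no strand, an antisense transcript. Transcripts of 1 gene share most of their exons, so a fragment in a shared exon is divided between them by the authors' counting, and for ribosomal protein genes and others with near-identical copies the values are uncertain for that reason too.

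The retained intron transcripts were short, with a median length of 870 nt against 2536 nt for the protein-coding transcripts listed. A median of 29.9% of their bases lay outside the exons of the coding transcripts of the same gene, so most of their sequence is shared with coding transcripts. At least 1 intron of 50 nt or more that some coding transcript of the gene splices out was held whole by 1440 of them, and 2180 held none whole. These came to 2162 distinct introns, of which 2122 (98.1%) had GT and AG ends, 25 had GC and AG, and 3 had the AT and AC ends of minor introns. The 5′ splice site read GTGAGT in 314 of the 2162 (14.5%) and GTAAGT in 174 (8.05%). Kept introns had a median length of 224 nt, against 950 nt for 33364 other introns of the same genes, and 36.2% of them against 14.7% were under 150 nt. A kept intron had to lie within 1 exon of a retained intron transcript, so the length of these transcripts limits that of kept introns. The difference in length follows at least in part from this definition.

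**Figure D1:**
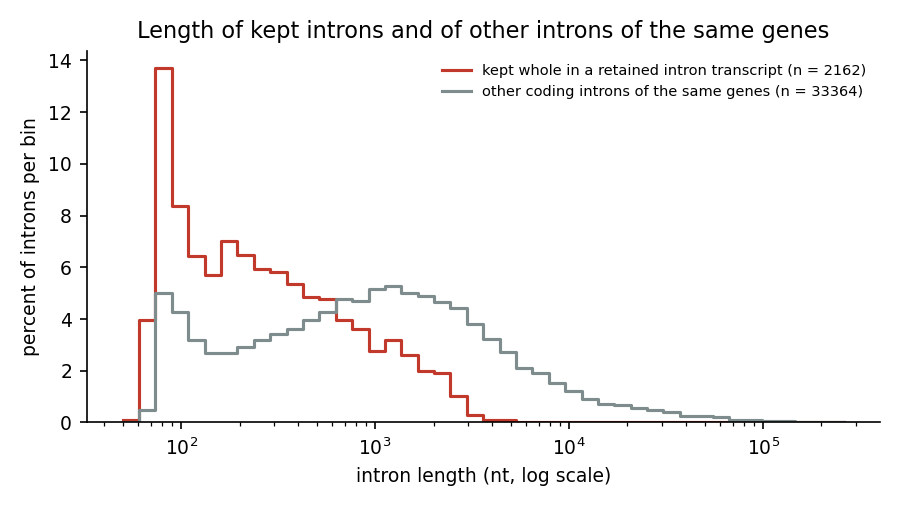
Length distribution of 2162 introns held whole by retained intron transcripts (red) and of 33364 other coding introns of the same genes (grey); the x axis is intron length in nt on a log scale and the y axis the percent of introns per bin. The kept introns sit to the left, with medians of 224 against 950 nt, and the transcripts that hold them limit their length.

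The kept introns below belong to transcripts whose values follow, and are given in GRCm38 from the GENCODE M21 transcript sequence, 5′ to 3′ on the strand of the gene, each with 10 exon bases on either side. Capitals mark the 5′ splice site (the last 3 exon and first 6 intron bases) and the 3′ splice site (the last 3 intron bases and the first exon base). Srpk3-203 holds 2 short introns, of 73 nt at chrX:73778032-73778104, plus strand and of 79 nt at chrX:73778175-73778253, plus strand. Myh6-204 holds 1 of 86 nt at chr14:54957261-54957346, minus strand. H2-Ke6-207 holds 1 of 170 nt at chr17:34026226-34026395, minus strand. Tfdp1-209 holds 1 of 232 nt at chr8:13370647-13370878, plus strand. Hspa8-207 holds 2 that share their 5′ end, of 115 and 172 nt, and the shorter is shown, at chr9:40802624-40802738, plus strand.
Srpk3-203, first: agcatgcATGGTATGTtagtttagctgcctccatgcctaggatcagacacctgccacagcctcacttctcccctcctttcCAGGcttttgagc
Srpk3-203, next: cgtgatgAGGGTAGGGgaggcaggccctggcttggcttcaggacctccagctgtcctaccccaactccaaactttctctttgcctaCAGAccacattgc
Myh6-204: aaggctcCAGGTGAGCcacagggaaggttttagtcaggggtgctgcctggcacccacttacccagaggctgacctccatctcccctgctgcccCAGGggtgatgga
H2-Ke6-207: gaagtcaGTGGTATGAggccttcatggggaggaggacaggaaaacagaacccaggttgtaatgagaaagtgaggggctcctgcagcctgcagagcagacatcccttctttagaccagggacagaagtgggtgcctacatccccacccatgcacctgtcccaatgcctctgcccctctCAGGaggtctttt
Tfdp1-209: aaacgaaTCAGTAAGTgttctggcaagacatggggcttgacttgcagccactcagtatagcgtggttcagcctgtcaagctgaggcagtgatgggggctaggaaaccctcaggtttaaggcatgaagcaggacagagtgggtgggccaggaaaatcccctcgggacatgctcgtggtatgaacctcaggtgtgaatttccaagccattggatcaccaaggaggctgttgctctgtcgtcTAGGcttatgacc
Hspa8-207: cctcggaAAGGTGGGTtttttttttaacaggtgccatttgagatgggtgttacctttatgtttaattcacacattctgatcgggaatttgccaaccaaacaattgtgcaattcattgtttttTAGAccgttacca

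For the longer introns of Slc6a8-205 (421 nt, chrX:73676900-73677320, plus strand) and Rab14-202 (320 nt, chr2:35183424-35183743, minus strand), whose transcripts differed from Control, only the 2 ends are printed with the same capitals, as 10 exon and 30 intron bases at the 5′ end, and 30 intron bases with up to 10 exon bases at the 3′ end.
Slc6a8-205, 5′ end: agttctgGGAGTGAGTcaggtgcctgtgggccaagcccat
Slc6a8-205, 3′ end: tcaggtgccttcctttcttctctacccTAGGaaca
Rab14-202, 5′ end: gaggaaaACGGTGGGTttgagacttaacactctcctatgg
Rab14-202, 3′ end: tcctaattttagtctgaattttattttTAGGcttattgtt
The 5′ sites of Slc6a8-205 (GTGAGT) and Tfdp1-209 (GTAAGT) are the 2 counted above, and those of the other introns printed differ from both.

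Together the retained intron transcripts made up 1.96 to 2.49% of the FPKM of named transcripts outside the mitochondrial genome in the Control libraries, 2.20 to 2.51% in AngII and 2.23 to 2.66% in AngII+QDG, so the 3 groups overlapped. The median transcript had a mean of 0.937 FPKM over the 15 libraries, against 2.31 for protein-coding transcripts. Means of at least 1 FPKM were reached by 1690 of the 3620, at least 10 by 157 and at least 50 by 25. The share of a transcript is its FPKM as a percent of the FPKM of all transcripts of its gene listed in every file. It had a median of 9.91% over the 3495 transcripts whose gene had another listed transcript, was over 50% for 238 and under 5% for 1106. Depth recovered from the FPKM steps was 51600000 to 78300000 fragments per library (rounded to 100000), and the median retained intron transcript rested on 33 to 82 fragments per library.

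The Control libraries had the widest ranges of the 3 groups in the number of transcripts at 0 and in the balance of short and long transcripts, and stood apart in the latter. Transcripts listed at 0 numbered 49 to 354 in Control, with 354 in Control 5, 30 to 49 in AngII and 34 to 61 in AngII+QDG. The median share per library was 4.64 to 7.27% in Control, 6.35 to 7.89% in AngII and 7.54 to 8.55% in AngII+QDG, with every AngII+QDG library above every Control library. The short-minus-long balance, the mean log2(FPKM + 1) of coding transcripts under 1000 nt less that of coding transcripts of at least 3000 nt, was 0.98 to 1.40 in Control, 0.77 to 0.96 in AngII and 0.64 to 0.89 in AngII+QDG. Control lay above both other groups with no overlap, so the balance and the absence of angiotensin II cannot be told apart. The 6 cardiomyocyte markers summed to 12886 to 21092 FPKM in Control, 15801 to 18714 in AngII and 10845 to 22915 in AngII+QDG. Smooth muscle and pericyte markers (5 of 5 listed) summed to 129 to 235, 224 to 345 and 178 to 283 FPKM, endothelial markers (5 of 5) to 90.0 to 169, 145 to 189 and 122 to 166, and fibroblast markers (5 of 5) to 187 to 242, 214 to 319 and 210.2 to 321. Their part in the results was not tested. In bulk tissue, a changed number of cells of a type and a changed amount of RNA per cell cannot be told apart.

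**Figure D2:**
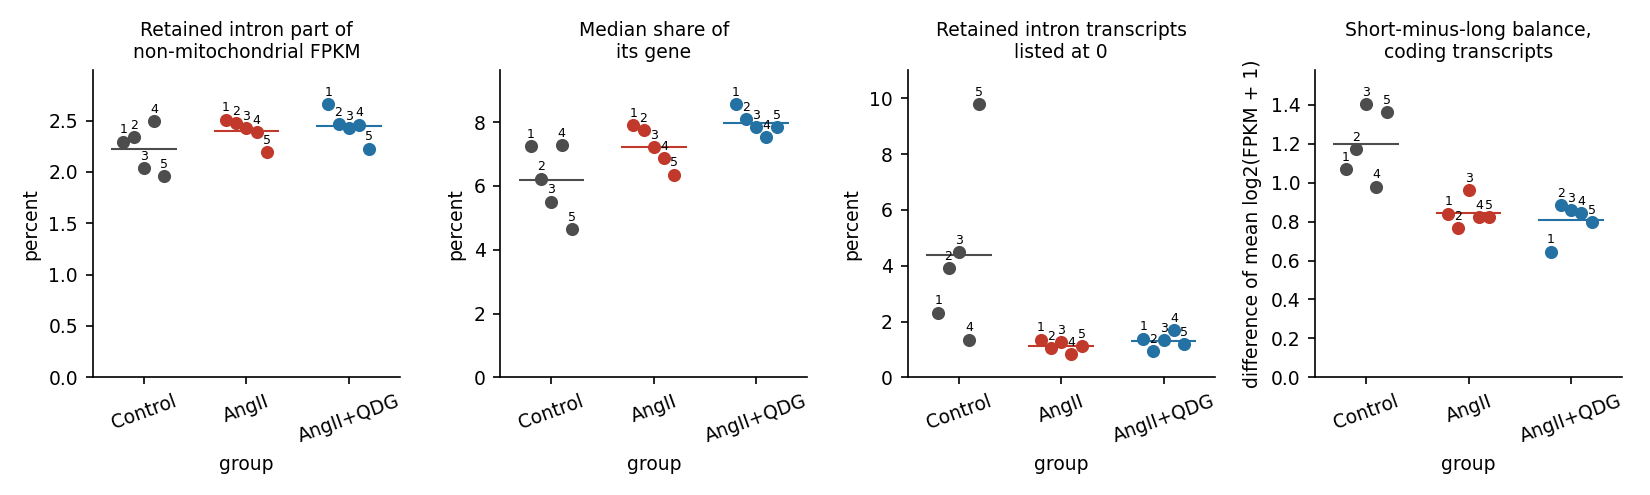
Each point is 1 of the 15 libraries, numbered by replicate and grouped on the x axis as Control, AngII and AngII+QDG, with a line at the mean of 5. From left to right the y axes are the percent of non-mitochondrial FPKM in retained intron transcripts, their median share of the gene in percent, the percent of them listed at 0 and the short-minus-long balance in log2 units; Control 5 stands highest in transcripts at 0 and Control lies above both other groups in the balance.

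Tnnt2-210, a 292-nt model within cardiac troponin T (ENSMUST00000188098, chr1:135849450-135849741), had the highest mean, 384 FPKM. Its libraries gave 357, 348, 205, 475 and 122 FPKM in Control, 435, 457, 458, 363 and 223 in AngII, with 452, 604, 557, 368 and 338 in AngII+QDG, and the groups overlapped. Tnni3-202 of cardiac troponin I followed with 180.2 to 612, 223 to 423 and 298 to 409 FPKM in the 3 groups.

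Wide swings between libraries marked other transcripts of high level. Atp5j-208, of an ATP synthase subunit, ran over 59.1 to 436 FPKM in Control, 11.6 to 318 in AngII and 62.8 to 524 in AngII+QDG. Ndufb10-205, of a complex I subunit, was steady in AngII at 169 to 201 FPKM but took 232, 28.9, 31.6, 268 and 405 in Control and 70.9, 122, 205, 203 and 14.3 in AngII+QDG. Rps26-202 was as low as 2.28 FPKM in AngII 4, against 118 to 239.7 in Control. Uimc1-205, of a subunit of the BRCA1-A complex, was the exception, at 162 to 201, 141 to 173 and 133 to 169 FPKM.

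In some genes the retained intron transcript held nearly all of the listed signal in every library. Uimc1-205 took 99.0 to 99.6% of its gene in Control, 98.9 to 99.5% in AngII and 98.4 to 99.7% in AngII+QDG. Car14-204, of a membrane carbonic anhydrase, took 92.3 to 96.8%, 93.4 to 96.0% and 93.1 to 95.4%. Both models lie mostly outside coding exons, by 76.1% and 60.8% of their bases. Aplp2-207, of an amyloid precursor-like protein, took 93.5 to 97.4%, 86.7 to 92.8% and 84.7 to 92.2%, with only 7.78% of its bases outside coding exons. Every Control library was above every other library for Aplp2-207 (adjusted p = 0.153 in AngII and 0.04998 in AngII+QDG). In share, Aplp2-207 lost its call without Control 1, 2, 3 or 5, or without any of the 5 AngII libraries, or without any of the 5 AngII+QDG libraries (adjusted p 0.0505 to 0.115). Iqsec1-208, of an exchange factor for Arf GTPases, took 90.8 to 97.2%, 81.3 to 92.1% and 80.8 to 91.7%. Myh7b-203, of a slow-tonic myosin heavy chain, took 85.1 to 96.9%, 66.5 to 95.6% and 92.4 to 97.1%. Clpb-208, of a mitochondrial disaggregase, spread more, over 42.6 to 98.8%, 77.1 to 99.1% and 69.8 to 98.0%.

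The comparison of AngII with Control asks what angiotensin II changed. Levels were tested with limma on log2(FPKM + 1), in 1 fit of all 15 libraries over 28475 transcripts, and a transcript was called at a Benjamini-Hochberg adjusted p under 0.05. Of the 3620 retained intron transcripts, 3426 reached 0.5 FPKM in at least 5 libraries and were tested, and of these 43 were higher and 17 lower in AngII, or 1.75%, where 2.5% of all transcripts tested were called (2.23% higher and 0.274% lower). The 43 had a median of 2.02 FPKM in AngII and 0.440 in Control, and 23 of them had a Control mean under 0.5 FPKM. Because the filter counts libraries of any group, such transcripts could be tested through the treated libraries alone. The counts of higher and lower calls thus rest in part on the filter. With no filter on low values 34 were higher and 15 lower. Of the 41 with other listed transcripts, 30 had a higher mean of those other transcripts in AngII too. The 17 lower transcripts had a median of 0.793 FPKM in AngII and 3.14 in Control. The median difference of all transcripts tested was 0.17, and of the retained intron transcripts 0.10, on the log2 scale. Scaling the libraries to a common median gave 23 higher and 33 lower, and quantile normalization 10 and 36. Calls over all transcripts under these scalings are not given here, so whether this shift is particular to retained intron transcripts was not tested.

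Slc6a8-205 and Lmo7-214 were among the 6 transcripts that rose most in AngII of those whose libraries did not overlap between the groups and that averaged at least 1 FPKM in AngII. Slc6a8-205, of the creatine transporter (ENSMUST00000146796, chrX:73673919-73677325), had 0.648, 0.545, 0.0472, 0.511 and 0.0292 FPKM in Control, 3.402, 2.16, 3.43, 1.75 and 1.55 in AngII, with 2.40, 1.77, 1.14, 1.77 and 2.34 in AngII+QDG. Every AngII and AngII+QDG library lay above every Control library, and the difference from Control was 1.34 ± 0.21 (SE; adjusted p = 0.0117) in AngII and 1.10 ± 0.21 (SE; adjusted p = 0.0120) in AngII+QDG. The other transcripts of the gene did not separate, at 26.5 to 50.3 FPKM in Control and 24.9 to 41.0 in AngII, and the share had an adjusted p of 0.0519. Lmo7-214, of a LIM-domain protein of cell junctions (ENSMUST00000160876, chr14:101884087-101900115), had 0.0688, 1.86, 0.223, 1.30 and 0.269 FPKM in Control and 4.71, 5.11, 3.02, 3.11 and 2.98 in AngII, a rise of 1.54 ± 0.26 (SE; adjusted p = 0.0161). The other Lmo7 transcripts went from 1.37 to 4.03 FPKM to 8.45 to 28.8, and its share overlapped between the groups. Both calls held in all 15 fits that each left out 1 library.

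The other 4 of these 6 lost their calls in some of the fits that each left out 1 library. Rpl18-210, of a large ribosomal subunit protein (ENSMUST00000211425, chr7:45719262-45720785), had 0.110, 0.253, 0.319, 8.60 and 0.115 FPKM in Control, 16.2, 11.3, 12.1, 11.8 and 11.3 in AngII, with 0.137, 9.87, 7.80, 0.325 and 7.71 in AngII+QDG. It was near 0 in 4 Control and 2 AngII+QDG libraries and at 7.71 FPKM or more in the others, and the rise in AngII was 2.89 ± 0.72 (SE; adjusted p = 0.0497). Ghitm-203, of an inner mitochondrial membrane protein (ENSMUST00000223921, chr14:37131398-37135272), had 14.8, 13.5, 20.1, 23.5 and 4.39 FPKM in Control and 35.8, 51.9, 32.5, 40.4 and 34.4 in AngII, a rise of 1.45 ± 0.33 (SE; adjusted p = 0.0396) with no overlap. Hadha-208, of the trifunctional enzyme of fatty acid oxidation, had 7.03, 1.51, 0.711, 5.04 and 0.582 FPKM in Control and 8.61, 10.1, 13.5, 10.1 and 12.1 in AngII, a rise of 1.89 ± 0.46 (SE; adjusted p = 0.0478). Control 1 came closest to the AngII libraries for Hadha-208. Tcp1-202, of a chaperonin subunit, rose by 1.33 ± 0.30 (SE; adjusted p = 0.0393), from 0.00402 to 1.05 FPKM to 1.67 to 4.32. Rpl18-210 lost its call without Control 1, 2, 3 or 5, or without any of the 5 AngII libraries, or without AngII+QDG 2, 3 or 5 (adjusted p 0.0559 to 0.107). Ghitm-203 lost its call without Control 1, 2 or 3, or without AngII 1, 2, 4 or 5, or without AngII+QDG 2, 3 or 5 (adjusted p 0.0508 to 0.0982). Hadha-208 lost its call without Control 2, 3 or 5, or without any of the 5 AngII libraries, or without AngII+QDG 1, 2, 4 or 5 (adjusted p 0.0508 to 0.103). Tcp1-202 lost its call without Control 1, 2, 3 or 5, or without AngII 1, 2, 4 or 5, or without AngII+QDG 2, 3 or 4 (adjusted p 0.0506 to 0.0981).

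Among the transcripts that fell in AngII, Gpx4-203 and H2-Ke6-207 came from enzymes of lipid metabolism. Gpx4-203, of the peroxidase that reduces lipid hydroperoxides (ENSMUST00000136081, chr10:80055998-80056363), had 9.30, 10.6, 9.62, 9.84 and 13.1 FPKM in Control and 6.06, 4.70, 7.16, 5.51 and 5.97 in AngII, a difference of -0.74 ± 0.14 (SE; adjusted p = 0.0201). The other Gpx4 transcripts had 694 to 825 FPKM in Control and 535 to 670.4 in AngII, also without overlap. H2-Ke6-207, of a mitochondrial hydroxysteroid dehydrogenase (ENSMUST00000174029, chr17:34026157-34026952), had 6.24, 6.30, 11.96, 6.15 and 6.76 FPKM in Control, 4.16, 3.03, 3.42, 2.08 and 3.89 in AngII, with 5.20, 5.38, 4.09, 4.48 and 7.41 in AngII+QDG. AngII was below every Control library, with a difference of -0.96 ± 0.21 (SE; adjusted p = 0.0342), and AngII+QDG overlapped both. Its other transcripts overlapped between Control and AngII, at 45.6 to 57.0 and 43.3 to 55.2 FPKM. Gpx4-203 lost its call without AngII 2 or 4 (adjusted p 0.0543 to 0.0581). H2-Ke6-207 lost its call without Control 2, 3 or 5, or without AngII 2, 4 or 5 (adjusted p 0.0571 to 0.0873).

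Rps2-205, of a small ribosomal subunit protein, fell by 1.30 ± 0.31 (SE; adjusted p = 0.0438), from 22.3 to 31.5 FPKM in Control to 7.10 to 13.97 in AngII. Taf10-204, of a subunit of the transcription factor TFIID, fell by 1.02 ± 0.23 (SE; adjusted p = 0.0385), from 1.42 to 3.27 FPKM to 0.194 to 1.12. Ptov1-209 fell by 0.99 ± 0.22 (SE; adjusted p = 0.0385), from 17.3 to 41.9 FPKM to 9.66 to 15.7. None of these 3 overlapped between the groups. Glt8d1-206, of a glycosyltransferase, fell by 0.81 ± 0.17 (SE; adjusted p = 0.0284) from 1.06 to 1.87 to 0.172 to 0.773 FPKM, while the mean of its other transcripts was 3.43 FPKM in Control and 5.99 in AngII. Rps2-205 lost its call without Control 1, 2, 3 or 5, or without AngII 1, 2, 4 or 5, or without AngII+QDG 2, 3 or 5 (adjusted p 0.0504 to 0.0969). Taf10-204 lost its call without Control 1, 2 or 3, or without AngII 1, 2 or 4, or without AngII+QDG 2 or 5 (adjusted p 0.05004 to 0.0964). Ptov1-209 lost its call without Control 2, 3 or 5, or without AngII 1, 2, 4 or 5, or without AngII+QDG 5 (adjusted p 0.0502 to 0.0945). Glt8d1-206 lost its call without Control 2 or 5, or without AngII 1, 2, 4 or 5 (adjusted p 0.0566 to 0.0776).

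Splicing genes had few called retained intron transcripts in this comparison. The SR protein list also holds related splicing proteins. Of 24 tested from 18 of its genes 2 rose, Luc7l-208 and Son-213, neither of them from an Srsf gene of an SR protein. Of 8 from 5 genes of splicing kinases 1 rose, and none was lower in either list. None of 27 from hnRNP genes was called, with 7 at an unadjusted p under 0.05, all higher. Of all transcripts tested 2.23% were called higher, and 22.1% had an unadjusted p under 0.05. Luc7l-208, of a U1 snRNP-associated protein, had 0.141, 0.0223, 0.00547, 0.314 and 0.00508 FPKM in Control and 0.627, 1.20, 0.694, 1.06 and 0.821 in AngII, a rise of 0.78 ± 0.14 (SE; adjusted p = 0.0200). Son-213, of a nuclear speckle protein, had 2.05, 1.84, 1.19, 2.14 and 1.40 and 5.33, 5.59, 3.54, 4.07 and 2.29 FPKM, a rise of 0.89 ± 0.20 (SE; adjusted p = 0.0367). Srpk3-203, of a muscle kinase of SR proteins, had 0.304, 0.511, 0.591, 0.383 and 0.356 FPKM in Control, 1.23, 1.39, 1.66, 2.25 and 1.15 in AngII, with 1.26, 0.991, 0.678, 0.774 and 0.327 in AngII+QDG, a rise of 0.82 ± 0.16 (SE; adjusted p = 0.0234) in AngII. None of the 3 overlapped between Control and AngII. Luc7l-208 lost its call without AngII 2 or 4 (adjusted p 0.0543 to 0.0581). Srpk3-203 lost its call without Control 5, or without AngII 2 or 4 (adjusted p 0.0501 to 0.0581). Son-213 lost its call without Control 2, 3 or 5, or without AngII 1, 2 or 4 (adjusted p 0.0668 to 0.0953). The median difference was 0.35 for the SR protein transcripts, 0.25 for the kinases and 0.27 for the hnRNPs, beside 0.17 for all transcripts tested. Scaling to a common median left 1 of the 24 from the SR protein list called and quantile normalization none. None of the 24 was called without Control 3 and Control 5, without AngII 2 or without AngII 4. The count was 1 without AngII 1, Control 2, Control 3 or Control 5, and the 1 of the kinases was lost without AngII 2, AngII 4 or Control 5.

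In genes of the sarcomere and cytoskeleton 3 of 23 retained intron transcripts rose and 1 fell, beside 2.23% of all transcripts tested called higher and 0.274% called lower. None of the 23 was called without Control 3 and Control 5, and 1 was with the replicate block or without any 1 of AngII 1, 2, 4 or 5 or Control 2, 3 or 5. Scaling to a common median gave 3 higher and 2 lower. Nexn-206, of the Z-disc protein nexilin, had 0.497, 0.0819, 0.322, 0.484 and 0.0373 FPKM in Control and 2.11, 1.60, 2.61, 1.10 and 1.46 in AngII, a rise of 1.10 ± 0.17 (SE; adjusted p = 0.00890) with no overlap, and stayed called in all 15 fits that each left out 1 library. Myh6-204, of the alpha myosin heavy chain, had 3.87, 2.65, 1.68, 5.23 and 0.913 FPKM in Control, 9.92, 9.33, 5.24, 8.45 and 6.15 in AngII, with 14.3, 12.9, 15.5, 8.61 and 8.25 in AngII+QDG. It rose by 1.28 ± 0.30 (SE; adjusted p = 0.0439) in AngII, with AngII 3 just above the highest Control library, while its other transcripts had 3141 to 7119.9 FPKM in Control and 3283 to 4309 in AngII. Tnnt2-215, a single exon of 3330 nt of cardiac troponin T with 97.3% of its bases outside coding exons, had 1.77, 1.72, 0.724, 4.18 and 0.585, 8.01, 8.63, 5.24, 4.63 and 3.85 and 15.2, 10.7, 9.05, 7.63 and 8.04 FPKM in the 3 groups. The rise in AngII was 1.42 ± 0.31 (SE; adjusted p = 0.0365), and Control 4 lay within the AngII range. Tnni3-203, of cardiac troponin I, fell by 0.73 ± 0.17 (SE; adjusted p = 0.0423), from 66.3 to 81.1 FPKM in Control to 31.8 to 68.5, with AngII 3 inside the Control range. Tnnt2-215 lost its call without Control 1, 2, 3 or 5, or without AngII 1, 2, 4 or 5 (adjusted p 0.0517 to 0.0945). Myh6-204 lost its call without Control 2, 3 or 5, or without AngII 1, 2, 4 or 5, or without AngII+QDG 2, 3, 4 or 5 (adjusted p 0.0520 to 0.103). Tnni3-203 lost its call without Control 1, 2, 3 or 5, or without AngII 1, 2, 4 or 5, or without AngII+QDG 2, 3 or 4 (adjusted p 0.0536 to 0.103).

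In the other lists few were called, beside 2.23% of all transcripts tested called higher and 0.274% called lower. Of 78 tested from genes of oxidative phosphorylation 2 fell and none rose, Atp5e-202 by 0.68 ± 0.16 (SE; adjusted p = 0.0474) and Ndufb8-202 by 1.04 ± 0.24 (SE; adjusted p = 0.0405). Of 118 from genes of the ribosome and translation, Rpl18-210 rose and Rps2-205 fell. Of 12 from calcium and channel genes Camk2d-225 rose, by 0.44 ± 0.10 (SE; adjusted p = 0.0429), from 0.0144 to 0.0641 FPKM to 0.348 to 0.585. AngII 4 alone of the Control and AngII libraries reached the 0.5 FPKM of the filter for Camk2d-225. It was therefore tested through the AngII+QDG libraries, and its values here are near the floor. Of 30 from genes known for regulated intron retention 2 rose, Luc7l-208 and Mat2a-207, the latter of the S-adenosylmethionine synthetase, by 0.69 ± 0.16 (SE; adjusted p = 0.0429). None was called among 19 from the core spliceosome, 13 from muscle splicing regulators, 17 from decay and export and 11 from matrix and growth factor genes, where 3, 3, 1 and 3 had an unadjusted p under 0.05, each higher, as had 22.1% of all transcripts tested in either direction. Atp5e-202 lost its call without Control 2, 3 or 5, or without any of the 5 AngII libraries, or without AngII+QDG 2, 3, 4 or 5 (adjusted p 0.0542 to 0.107). Ndufb8-202 lost its call without Control 2, 3 or 5, or without any of the 5 AngII libraries, or without AngII+QDG 2, 3 or 5 (adjusted p 0.0508 to 0.0904). Camk2d-225 lost its call without Control 1, 2, 3 or 5, or without any of the 5 AngII libraries, or without AngII+QDG 3 or 4 (adjusted p 0.0508 to 0.0977). Mat2a-207 lost its call without Control 1, 2, 3 or 5, or without any of the 5 AngII libraries, or without AngII+QDG 2, 3, 4 or 5 (adjusted p 0.0507 to 0.0935). The called transcripts of the lists, in this and in the other comparisons, were picked out for naming after their values were seen.

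The number of calls in AngII moved with single libraries. It was 5 without AngII 4, 7 without AngII 2, 12 without each of Control 2, Control 3 or Control 5, 15 without AngII 1, 20 without AngII 5, and 152 without Control 4. With the short-minus-long balance as a covariate 1 transcript was called, and without Control 3 and Control 5 1 was, none of them among the 60.

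**Figure D3:**
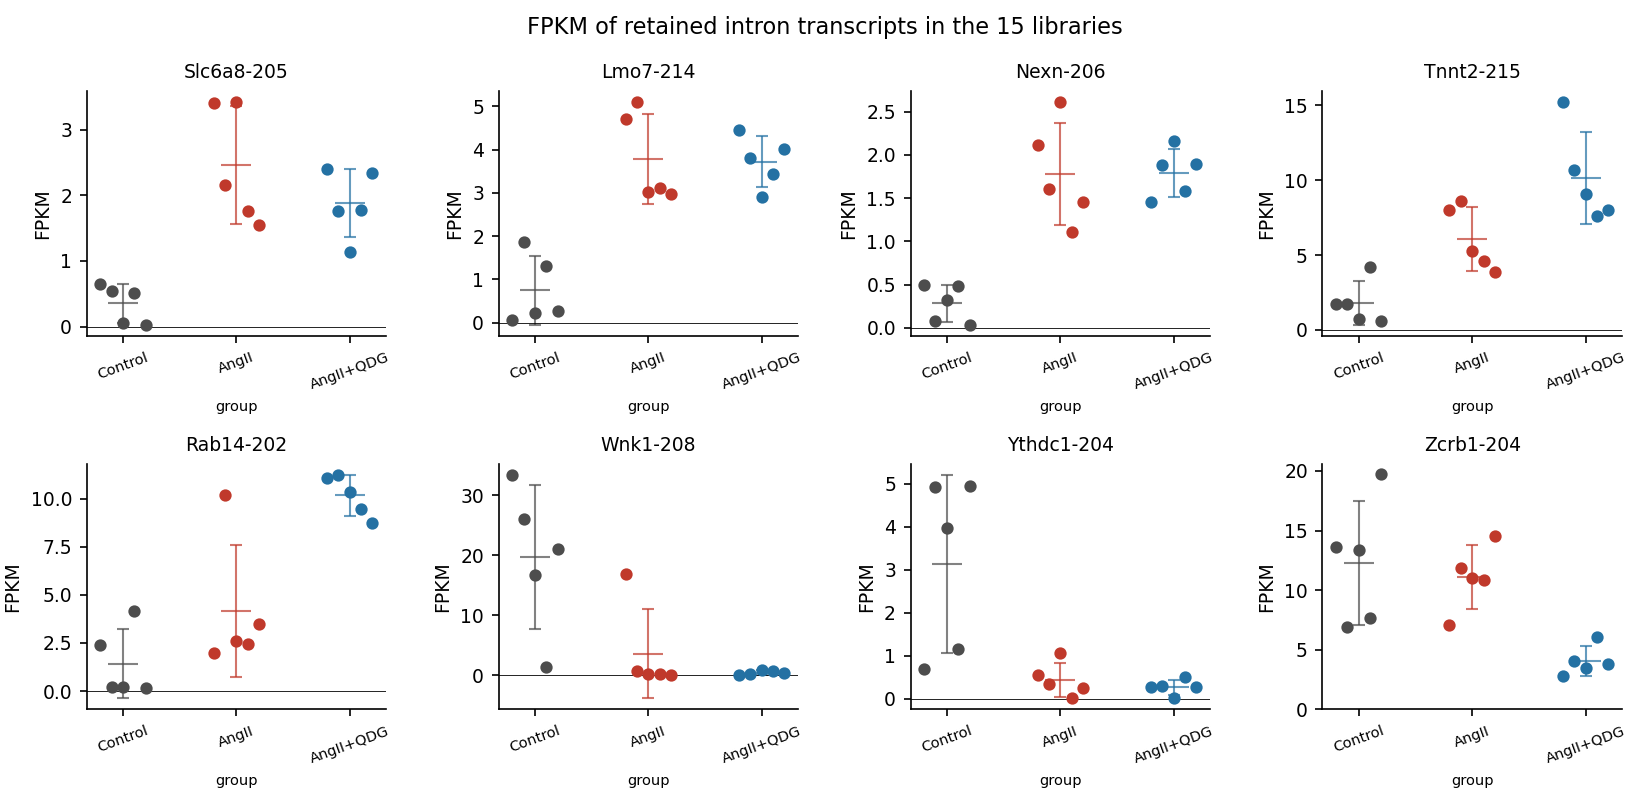
FPKM of 8 retained intron transcripts (1 panel each) in the 15 libraries, by group; points are libraries in replicate order and the bar is the mean with the SD of 5. Slc6a8-205, Lmo7-214 and Nexn-206 are low in every Control library and higher in every AngII and AngII+QDG library, while Wnk1-208 and Rab14-202 each have 1 AngII library far from the other 4.

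AngII+QDG against Control asks what both agents together changed, and it uses the same Control libraries. The AngII+QDG files list partly other transcripts than the Control and AngII files. Any difference in how these files were made cannot be told apart from QDG, here or in AngII+QDG against AngII. Of the 3426 retained intron transcripts tested 161 were higher and 32 lower, or 5.63%, against 6.91% of all transcripts (5.93% higher and 0.976% lower). The 161 had a median of 1.57 FPKM in AngII+QDG and 0.365 in Control, with 103 under 0.5 FPKM in Control. Such transcripts could again be tested through the treated libraries alone, and with no filter on low values 146 were higher and 27 lower. Among the 161, the mean of the other transcripts of the gene was higher too in 121 of the 157 that had any. For the 32 lower ones the other transcripts were lower in 13 of 31. Transcripts over 2000 nt were called in 8.39% of cases and those of up to 600 nt in 3.94%. Control also lay apart in the short-minus-long balance of coding transcripts, and the part of that balance in this contrast was not tested. Scaling to a common median gave 108 higher and 97 lower, and quantile normalization 63 and 73, again without the calls over all transcripts. In the main fit the median difference over all transcripts tested was 0.15 on the log2 scale.

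Rab14-202 and Tsc22d4-206 rose both in level and in share of their gene. Rab14-202, of a GTPase of endosomal traffic (ENSMUST00000113025, chr2:35180205-35201120), holds 3 annotated introns whole, 2 of which overlap, and had 2.40, 0.236, 0.187, 4.15 and 0.161 FPKM in Control, 1.98, 10.2, 2.62, 2.43 and 3.50 in AngII, with 11.1, 11.2, 10.3, 9.47 and 8.75 in AngII+QDG. The 5 AngII+QDG libraries were even and above all Control libraries, and AngII 2 alone of the AngII libraries reached them. The rise from Control was 2.50 ± 0.44 (SE; adjusted p = 0.00857). Its share of the gene was 12.2, 1.22, 0.916, 18.3 and 0.985% in Control and 44.8, 51.7, 36.1, 35.1 and 33.4% in AngII+QDG, a rise of 3.23 ± 0.60 (SE; adjusted p = 0.0282) on the scale of log2 of the transcript over the rest of its gene, each with 0.5 FPKM added. The other Rab14 transcripts had 16.2 to 20.3 FPKM in Control and 10.47 to 18.3 in AngII+QDG.

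Tsc22d4-206, of a TSC22-domain protein (ENSMUST00000129349, chr5:137745959-137752728), had 0.168, 0.459, 0.104, 0.151 and 0.0459 FPKM in Control, 4.52, 3.65, 0.172, 0.989 and 3.04 in AngII, with 6.03, 5.99, 4.28, 4.36 and 3.77 in AngII+QDG. All AngII+QDG libraries were far above all Control libraries, by 2.30 ± 0.35 (SE; adjusted p = 0.00465), and the AngII libraries covered the span between, with AngII 3 in the Control range. Its share was 0.444 to 1.99% in Control, 0.747 to 21.9% in AngII and 18.9 to 27.0% in AngII+QDG, a rise over Control of 3.19 ± 0.50 (SE; adjusted p = 0.0123). Tnnt2-215 rose by 2.09 ± 0.31 (SE; adjusted p = 0.00465), with the values given above and no overlap. The level calls of Rab14-202, Tsc22d4-206 and Tnnt2-215, and the share call of Tsc22d4-206, held in all 15 fits that each left out 1 library. In share, Rab14-202 lost its call without Control 2, 3 or 5, or without any of the 5 AngII+QDG libraries (adjusted p 0.0501 to 0.0707).

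Ptpn11-203, Hmgn2-212 and Eif5-210 were nearly absent from Control and uneven elsewhere. Ptpn11-203, of the phosphatase SHP-2, was listed at 0 in 4 Control libraries and at 0.0147 FPKM in Control 4, and had 0.0665, 22.3, 1.78, 0.0141 and 31.1 FPKM in AngII, with 2.82, 22.8, 12.4, 4.99 and 17.1 in AngII+QDG. The other transcripts of the gene were lowest where it was highest, at 57.0, 5.61, 20.5, 31.5 and 13.2 FPKM in the same 5 AngII+QDG libraries. Hmgn2-212, of a nucleosome-binding protein, was listed at 0 in Control 2 to 5 and in AngII 2, 3 and 5, and had 10.8, 15.4, 14.3, 2.41 and 5.41 FPKM in AngII+QDG. The other Hmgn2 transcripts had 5.95 to 29.4 FPKM in Control and 3.32 to 5.05 in AngII+QDG. Eif5-210, of a translation initiation factor, had 0.0218 to 0.235 FPKM in Control, 0.0416 to 9.62 in AngII and 0.914 to 13.6 in AngII+QDG. The adjusted p for AngII+QDG minus Control was 0.0381, 0.0404 and 0.0388. Ptpn11-203 lost its call without Control 1, 2, 3 or 5, or without any of the 5 AngII+QDG libraries (adjusted p 0.0506 to 0.0831). Hmgn2-212 lost its call without Control 2, 3, 4 or 5, or without AngII+QDG 1, 2, 3 or 5 (adjusted p 0.0522 to 0.0907). Eif5-210 lost its call without Control 1, 2, 3 or 5, or without AngII+QDG 1, 3 or 5 (adjusted p 0.0617 to 0.0977).

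Of the transcripts that fell, Wnk1-208 moved most. Wnk1-208, of a kinase that controls ion cotransporters (ENSMUST00000159903, chr6:119923969-119927261), had 33.4, 26.0, 16.8, 1.41 and 21.1 FPKM in Control, 16.9, 0.779, 0.219, 0.187 and 0.0609 in AngII, with 0.0521, 0.205, 0.971, 0.793 and 0.349 in AngII+QDG. Control 4 was low and AngII 1 high against their groups, and no Control library overlapped AngII+QDG. The difference was -3.43 ± 0.79 (SE; adjusted p = 0.0229) in level and -6.63 ± 1.29 (SE; adjusted p = 0.0299) in share, which was 99.5, 92.5, 90.0, 13.3 and 95.3% in Control and 0.183 to 7.18% in AngII+QDG. The other Wnk1 transcripts had 0.165 to 9.17 FPKM in Control and 9.89 to 28.4 in AngII+QDG. One of them, the retained intron transcript Wnk1-206, rose in share by 2.01 ± 0.41 (SE; adjusted p = 0.0369), with 0 to 0.316% in Control and 0.0459 to 10.8% in AngII+QDG. Against the coding transcripts alone its difference was -1.18 and uncalled (adjusted p = 0.333). Wnk1-208 has only 0.920% of its bases outside coding exons. Wnk1-208 lost its call without Control 2, 3 or 5, or without AngII+QDG 1 or 5 (adjusted p 0.0515 to 0.0589). In share, Wnk1-208 lost its call without Control 1, 2, 3 or 5, or without any of the 5 AngII+QDG libraries (adjusted p 0.0530 to 0.0788). Wnk1-206 lost its call without Control 1, 2, 3 or 5, or without AngII+QDG 1, 2, 3 or 4 (adjusted p 0.0667 to 0.0957).

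Ythdc1-204 and Zcrb1-204 come from genes of RNA processing. Ythdc1-204, of the nuclear reader of N6-methyladenosine (ENSMUST00000123625, chr5:86831763-86836657), had 0.684, 4.92, 3.97, 1.17 and 4.95 FPKM in Control, 0.553, 0.340, 1.06, 0.0105 and 0.256 in AngII, with 0.261, 0.283, 0.0130, 0.498 and 0.263 in AngII+QDG, a difference of -1.54 ± 0.34 (SE; adjusted p = 0.0181). Zcrb1-204, of a protein of the minor spliceosome (ENSMUST00000159723, chr15:93386113-93391380), had 13.6, 6.92, 13.4, 7.64 and 19.7 FPKM in Control, 7.06, 11.9, 11.01, 10.9 and 14.5 in AngII, with 2.78, 4.02, 3.48, 6.10 and 3.80 in AngII+QDG. All AngII+QDG libraries lay below all others, with a difference of -1.34 ± 0.27 (SE; adjusted p = 0.0132) from Control and, uncalled, of -1.26 ± 0.27 (SE; adjusted p = 0.502) from AngII. The other Zcrb1 transcripts were at 23.0 to 35.3, 29.6 to 37.3 and 29.1 to 36.0 FPKM. Mrpl21-205, of a mitochondrial ribosomal protein, fell by 1.78 ± 0.45 (SE; adjusted p = 0.0331), Ptov1-209 by 1.04 ± 0.22 (SE; adjusted p = 0.0167) and Ints4-204, of the Integrator complex, by 0.99 ± 0.26 (SE; adjusted p = 0.0355). None of these 5 overlapped between AngII+QDG and Control. The calls of Ythdc1-204, Zcrb1-204 and Ptov1-209 held in all 15 fits that each left out 1 library. Mrpl21-205 lost its call without Control 1, 2, 3 or 5, or without AngII+QDG 1, 4 or 5 (adjusted p 0.0512 to 0.0852). Ints4-204 lost its call without Control 2, 3 or 5, or without AngII+QDG 1, 3, 4 or 5 (adjusted p 0.0516 to 0.0783).

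Some retained intron transcripts of RNA-binding proteins rose in AngII+QDG. Beside 5.93% of all transcripts tested that rose, 5 of 24 from the SR protein list and 7 of 27 from hnRNP genes rose. Of 13 from muscle splicing regulators 3 rose and of 19 from the core spliceosome 1 rose, with none lower in any of these lists. Quantile normalization left 2, 3, 1 and 1 of these called and scaling to a common median 4, 4, 1 and 1, and without Control 3 and Control 5 the muscle regulators had 1 called and the other 3 lists none. With 1 library left out the SR protein count was lowest at 2 (without AngII+QDG 1 or 2 or Control 2, 3 or 5), the hnRNP count at 2 (without AngII+QDG 1 or 5) and the muscle regulator count at 1 (in 13 of the 15 fits). Luc7l-208 rose by 0.86 ± 0.14 (SE; adjusted p = 0.00635) and Son-213 by 1.11 ± 0.20 (SE; adjusted p = 0.00870). Srsf1-206 and Srsf2-203, of SR proteins, rose by 1.15 ± 0.30 (SE; adjusted p = 0.0346) and 0.69 ± 0.19 (SE; adjusted p = 0.0475). Srsf1-206 had 0.874, 0.140, 0.642, 0.0638 and 0.0426 FPKM in Control and 5.06, 1.74, 1.38, 1.20 and 1.40 in AngII+QDG, where AngII+QDG 1 stood apart. Acin1-209, of a splicing-associated protein, rose by 0.80 ± 0.21 (SE; adjusted p = 0.0400). The level calls of Luc7l-208 and Son-213 held in all 15 fits that each left out 1 library. Srsf1-206 lost its call without Control 2, 3, 4 or 5, or without AngII+QDG 1, 2 or 5 (adjusted p 0.0510 to 0.0776). Srsf2-203 lost its call without Control 1, 2, 3 or 5, or without any of the 5 AngII libraries, or without any of the 5 AngII+QDG libraries (adjusted p 0.0564 to 0.112). Acin1-209 lost its call without Control 1, 2, 3 or 5, or without AngII 1, 3 or 4, or without AngII+QDG 1, 2, 3 or 4 (adjusted p 0.0501 to 0.0991).

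Those of hnRNP genes included Hnrnpdl-206, Hnrnpl-203, Pcbp2-222, Pcbp2-229 and Tardbp-225. Tardbp-225, of TDP-43, had 0.0823, 0.163, 0.1999, 0.815 and 0.0371 FPKM in Control, 0.382, 0.532, 0.520, 0.424 and 0.587 in AngII, with 1.86, 1.31, 1.14, 1.31 and 0.775 in AngII+QDG. AngII+QDG was above every AngII library and overlapped Control through Control 4. Its rise from Control was 0.87 ± 0.16 (SE; adjusted p = 0.00975), and the share overlapped between Control and AngII+QDG, with an adjusted p of 0.906. Hnrnpl-203 rose by 1.09 ± 0.25 (SE; adjusted p = 0.0208), Hnrnpdl-206 by 0.53 ± 0.13 (SE; adjusted p = 0.0304), Pcbp2-222 by 0.59 ± 0.15 (SE; adjusted p = 0.0333) and Pcbp2-229 by 0.62 ± 0.15 (SE; adjusted p = 0.0294). Tardbp-225 kept its call in all 15 fits that each left out 1 library. Hnrnpl-203 lost its call without Control 3, or without AngII+QDG 1 (adjusted p 0.0506 to 0.0514). Hnrnpdl-206 lost its call without Control 2 or 5, or without AngII+QDG 1, 3 or 5 (adjusted p 0.0549 to 0.0764). Pcbp2-222 lost its call without Control 1, 2, 3 or 5, or without AngII+QDG 1, 2, 4 or 5 (adjusted p 0.0515 to 0.0770). Pcbp2-229 lost its call without Control 2, or without AngII+QDG 1, 3 or 5 (adjusted p 0.0538 to 0.0776).

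Srrm2-209, Hnrnpa2b1-211, Hnrnpl-212 and Ptbp1-213, also of splicing genes, had high levels and were not called. Srrm2-209 had 9.64 to 16.2 FPKM in Control, 3.02 to 13.3 in AngII and 4.64 to 15.8 in AngII+QDG. Hnrnpa2b1-211 had 5.54 to 8.37, 6.49 to 13.1 and 7.32 to 10.4 FPKM, and Hnrnpl-212 0.798 to 9.23, 7.19 to 9.63 and 8.04 to 12.8. Ptbp1-213, of the polypyrimidine tract-binding protein, took 67.3, 74.7, 72.1, 60.6 and 66.4% of its gene in Control, 56.9, 41.4, 37.9, 28.1 and 37.0% in AngII, with 52.6, 9.09, 56.6, 50.5 and 55.5% in AngII+QDG. Every Control library was above every other library, with adjusted p of 0.207 and 0.214 for the 2 comparisons with Control.

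From the muscle splicing regulators rose Rbm25-206 by 0.85 ± 0.14 (SE; adjusted p = 0.00540), Rbm38-203 by 0.70 ± 0.20 (SE; adjusted p = 0.0489) and Rbm39-205 by 0.87 ± 0.24 (SE; adjusted p = 0.0481), each of an RNA-binding protein. Rbm25-206 had 0.199, 0.252, 0.364, 0.220 and 0.235 FPKM in Control, 0.685, 1.25, 0.450, 0.608 and 0.634 in AngII, with 1.66, 1.17, 1.05, 0.900 and 1.65 in AngII+QDG, with every Control library below every other. Rbm25-206 kept its call in all 15 fits that each left out 1 library. Rbm38-203 lost its call without Control 2, 3, 4 or 5, or without any of the 5 AngII libraries, or without any of the 5 AngII+QDG libraries (adjusted p 0.0512 to 0.109). Rbm39-205 lost its call without any of the 5 Control libraries, or without any of the 5 AngII libraries, or without AngII+QDG 1, 2, 4 or 5 (adjusted p 0.0529 to 0.0970). Ddx5-202, of an RNA helicase and the transcript called from the core spliceosome, had 1.05, 0.554, 0.272, 1.88 and 0.194 FPKM in Control, 1.62, 2.12, 1.47, 1.46 and 1.44 in AngII, with 2.48, 2.49, 2.19, 2.57 and 3.09 in AngII+QDG. Every AngII+QDG library lay above every other library, and the rise from Control, 1.07 ± 0.21 (SE; adjusted p = 0.0129), held in all 15 fits that each left out 1 library.

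Among the remaining lists, 6 of 23 transcripts from the sarcomere and cytoskeleton and 9 of 30 from genes known for regulated intron retention rose. Of all transcripts tested 5.93% rose. Tnnc1-201, of cardiac troponin C, had 19.96, 25.1, 10.3, 17.8 and 8.80 FPKM in Control, 35.3, 18.8, 26.9, 26.6 and 30.3 in AngII, with 32.7, 53.7, 47.3, 45.2 and 34.6 in AngII+QDG, a rise of 1.40 ± 0.26 (SE; adjusted p = 0.0103). Every AngII+QDG library lay above every Control library. Myh6-204 rose by 1.82 ± 0.30 (SE; adjusted p = 0.00649), Nexn-206 by 1.13 ± 0.17 (SE; adjusted p = 0.00465), Des-203, of desmin, by 1.05 ± 0.23 (SE; adjusted p = 0.0179) and Tpm1-217, of tropomyosin, by 1.42 ± 0.37 (SE; adjusted p = 0.0361). Mat2a-205 and Mat2a-207 rose by 0.88 ± 0.23 (SE; adjusted p = 0.0374) and 0.70 ± 0.16 (SE; adjusted p = 0.0221), and Eif4a2-218, of a translation initiation helicase, by 0.75 ± 0.15 (SE; adjusted p = 0.0121). Of 12 from calcium and channel genes Camk2d-225, of a calcium-dependent kinase, rose by 0.68 ± 0.10 (SE; adjusted p = 0.00465) and Ryr2-211, of the cardiac ryanodine receptor, by 0.88 ± 0.22 (SE; adjusted p = 0.0326). Tnnc1-201, Myh6-204, Nexn-206, Des-203, Eif4a2-218 and Camk2d-225 kept their calls in all 15 fits that each left out 1 library. Tpm1-217 lost its call without Control 1, 2, 3 or 5, or without AngII+QDG 1, 4 or 5 (adjusted p 0.0548 to 0.0844). Mat2a-205 lost its call without Control 2, 3 or 5, or without AngII+QDG 1, 2, 4 or 5 (adjusted p 0.0563 to 0.0933). Mat2a-207 lost its call without AngII+QDG 5 (adjusted p 0.0563). Ryr2-211 lost its call without Control 1, 2, 3 or 5, or without AngII+QDG 1, 3 or 4 (adjusted p 0.05001 to 0.0782). Without Control 3 and Control 5, 4 of the sarcomere list and none of the regulated list were called, and quantile normalization gave 5 higher and 1 lower in the former and 4 higher in the latter. The regulated list had 4 called without AngII+QDG 5 and 5 without AngII+QDG 1 or Control 3. Of 78 from oxidative phosphorylation 4 rose and 1 fell, and of 118 from ribosome and translation 2 rose and 1 fell. Of 53 from fuel metabolism 1 rose and of 11 from matrix and growth factor genes 2 rose. Beside these stood 5.93% of all transcripts tested called higher and 0.976% called lower. None of 17 from decay and export or 8 from splicing kinases was called. At an unadjusted p under 0.05 were 3 and 2 of these, and 23.9% of all transcripts tested. The oxidative phosphorylation list gave 1 higher and 3 lower under scaling to a common median, 0 and 2 under quantile normalization, and none without AngII+QDG 1 or without Control 3.

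Protein-coding transcripts of the same gene lists are the nearest comparison, but they cover more genes. In the sarcomere list the retained intron transcripts came from 14 genes and the coding transcripts from 34, and for oxidative phosphorylation from 41 and 78. In the sarcomere list the median difference was 0.54 for retained intron and 0.36 for coding transcripts, for the hnRNPs 0.40 and 0.34, for the SR proteins 0.34 and 0.42, for oxidative phosphorylation 0.03 and -0.18, and for ribosome and translation -0.01 and -0.19. The difference between the 2 kinds of transcript was not tested. Under scaling to a common median the retained intron median was 0.25 in the sarcomere list and 0.21 for the SR proteins, and it was -0.26 for oxidative phosphorylation, where the sign thus turned. Coding transcripts were called in 8.25% of 14956 cases.

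**Figure D4:**
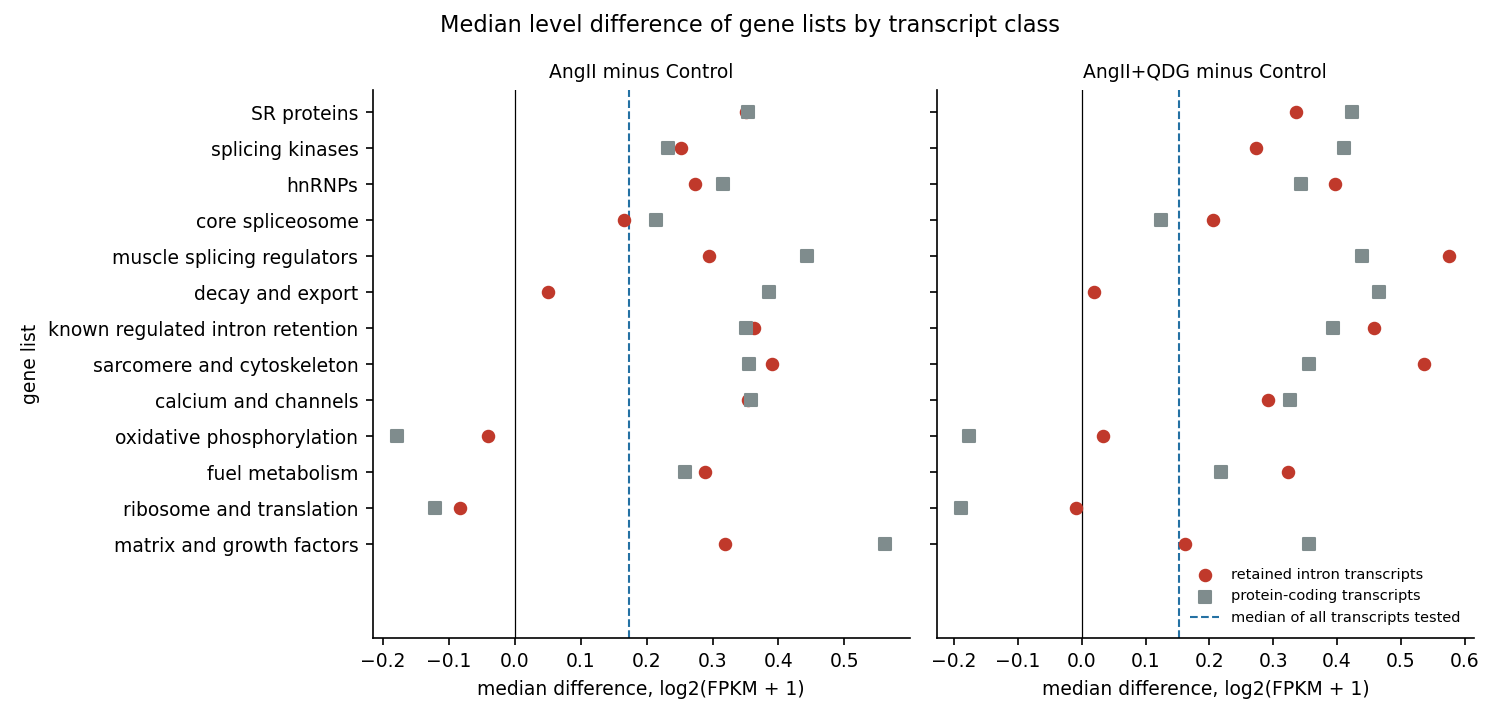
Median difference in log2(FPKM + 1) for 13 gene lists, retained intron transcripts as red circles and protein-coding transcripts as grey squares, for AngII minus Control (left) and AngII+QDG minus Control (right); the dashed line is the median of all transcripts tested, 0.17 and 0.15. The retained intron medians of the oxidative phosphorylation and ribosome lists lie near 0 in both panels on this scale and below 0 when the libraries are scaled to a common median.

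The number of calls moved with libraries here too, from 84 without AngII+QDG 1, 94 without Control 3, 99 without AngII+QDG 5, 106 without Control 2 and 107 without Control 5 to 280 without Control 4. Without Control 3 and Control 5 21 transcripts were called, 19 of them among the 193, and with the short-minus-long balance as a covariate none was, with 200 at an unadjusted p under 0.05.

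Whether a retained intron transcript took a larger or smaller part of its gene was tested with limma on 14330 transcripts, 3296 of them retained intron transcripts. In AngII against Control none was called, with 438 at an unadjusted p under 0.05, as had 12.9% of all transcripts tested. Of all transcripts 0.161% were called (0.0837% higher and 0.0768% lower). By contrast, limma diffSplice called 63, 15 higher and 48 lower. It sets each transcript's difference in log2(FPKM + 1) against the other transcripts of its gene, which is another scale than the share. Its calls over all transcripts are not given here. In AngII+QDG against Control 11 were higher and 11 lower, or 0.667%, beside 0.921% of all transcripts (0.502% higher and 0.419% lower). In 9 of each 11 the groups did not overlap, which is no separate support, since a call already rests on groups that lie apart. The call counts with 1 library left out ran from 2 to 47, the highest without Control 4, and none of the 22 was called without Control 3 and Control 5 or with the short-minus-long balance as a covariate.

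Besides Rab14-202 and Tsc22d4-206, the largest rises in share over Control without overlap, at a mean of at least 1 FPKM in AngII+QDG, were those of Plekho1-205, Tnnc1-201, Ghitm-203 and Atp5o-202. Plekho1-205 went from 1.55, 6.00, 0.256, 4.48 and 0.224% in Control to 33.6, 28.3, 20.9, 15.5 and 11.3% in AngII+QDG, by 2.86 ± 0.54 (SE; adjusted p = 0.0299). Tnnc1-201 took a small share throughout, 0.681, 0.703, 0.236, 0.595 and 0.258% in Control and 1.23, 1.91, 1.39, 1.64 and 1.38% in AngII+QDG, a rise of 1.73 ± 0.32 (SE; adjusted p = 0.0282). Ghitm-203 took 11.3, 11.3, 14.4, 14.1 and 5.59% in Control, 19.1, 21.8, 19.0, 21.3 and 17.6% in AngII, with 26.7, 19.99, 22.1, 19.8 and 25.2% in AngII+QDG. All libraries of both treated groups were above all Control libraries for Ghitm-203, with differences of 0.97 ± 0.25 (SE; adjusted p = 0.128) and 1.22 ± 0.25 (SE; adjusted p = 0.0403). Atp5o-202, of an ATP synthase subunit, rose by 1.20 ± 0.27 (SE; adjusted p = 0.0492) at shares of 0.00363 to 0.0569% and 0.0595 to 0.159%. Plekho1-205 lost its call without Control 1, 3 or 5, or without any of the 5 AngII+QDG libraries (adjusted p 0.0508 to 0.0725). Tnnc1-201 lost its call without Control 3 or 5, or without AngII+QDG 2, 3, 4 or 5 (adjusted p 0.0501 to 0.0603). Ghitm-203 lost its call without Control 1, 2 or 3, or without any of the 5 AngII libraries, or without any of the 5 AngII+QDG libraries (adjusted p 0.0505 to 0.103). Atp5o-202 lost its call without Control 1, 2, 3 or 5, or without any of the 5 AngII libraries, or without AngII+QDG 1, 2, 4 or 5 (adjusted p 0.0570 to 0.119).

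Besides Wnk1-208, shares fell in Tfdp1-209, Immt-214, Pik3c2a-207, Birc6-206 and Zfc3h1-202. Of the 11 called lower in share only 4 were called in level, and in 0 of them was the mean of the other transcripts lower. In the limma level fit Pik3c2a-207 and Birc6-206 were called lower (adjusted p = 0.0434 and 0.0234). Tfdp1-209, Immt-214 and Zfc3h1-202 were not called in level (adjusted p = 0.162, 0.228 and 0.120). Tfdp1-209, of the dimerization partner of E2F factors, took 100, 100, 100, 54.9 and 100% in Control, 46.8, 45.4, 10.8, 44.1 and 73.6% in AngII, with 4.76, 2.16, 1.93, 42.7 and 10.7% in AngII+QDG. The other transcripts of the gene were listed at 0 in 4 Control libraries, and the difference was -4.21 ± 0.79 (SE; adjusted p = 0.0282). Pik3c2a-207, of a class II phosphoinositide 3-kinase, took 98.1, 99.5, 96.3, 52.8 and 99.5% in Control and 26.9, 37.0, 42.0, 16.7 and 10.6% in AngII+QDG, a difference of -2.40 ± 0.49 (SE; adjusted p = 0.0371). In both genes Control 4 was the Control library nearest to the treated groups. Birc6-206, of a large ubiquitin ligase, went from 32.9 to 90.6% to 13.7 to 30.6%, Immt-214, of a mitochondrial crista protein, from 10.1 to 59.8% to 3.08 to 5.95%, and Zfc3h1-202, of a nuclear RNA decay factor, from 49.4 to 89.4% to 22.4 to 43.1%. Their adjusted p were 0.0444, 0.0492 and 0.0446. Tfdp1-209 lost its call without Control 2, 3 or 5, or without AngII+QDG 1, 2, 3 or 5 (adjusted p 0.0548 to 0.0707). Pik3c2a-207 lost its call without Control 1, 2, 3 or 5, or without AngII 1 or 2, or without any of the 5 AngII+QDG libraries (adjusted p 0.0509 to 0.0912). Birc6-206 lost its call without Control 1, 2, 3 or 5, or without any of the 5 AngII libraries, or without any of the 5 AngII+QDG libraries (adjusted p 0.0538 to 0.109). Immt-214 lost its call without Control 1, 2, 3 or 5, or without AngII 1, 2, 3 or 5, or without any of the 5 AngII+QDG libraries (adjusted p 0.0578 to 0.119). Zfc3h1-202 lost its call without Control 2, 3, 4 or 5, or without AngII 1, 3, 4 or 5, or without any of the 5 AngII+QDG libraries (adjusted p 0.0514 to 0.110).

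In AngII against Control the smallest p for a higher share were those of Slc6a8-205, Ing4-207 and Oaz2-205, and those for a lower share included Zfp326-205 and Triobp-211, all uncalled. Ing4-207, of a chromatin-binding protein, was listed at 0 in Control 2 to 5 and took 41.7, 29.2, 29.8, 46.3 and 20.2% in AngII (adjusted p = 0.0866). Zfp326-205, of a zinc-finger protein, was listed at 0 in AngII 1, 3, 4 and 5 and took 100, 19.2, 53.7, 100 and 100% in Control (adjusted p = 0.0741). These groups did not overlap for either transcript.

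What QDG changed in angiotensin II-treated hearts is asked by AngII+QDG against AngII. No retained intron transcript was called in level, with 171 of 3426 (4.99%) at an unadjusted p under 0.05, where 4.66% of all transcripts were, and 0.0105% of all transcripts called (0.00351% higher and 0.00702% lower). The voom fit on recovered fragments also called none. In share none was called, with 152 of 3296 (4.61%) at an unadjusted p under 0.05, where 4.87% of all transcripts were, and 0% of all transcripts called. On its own scale diffSplice called 4, all lower, and its calls over all transcripts are not given here. Of the 152 in share 114 were higher and 38 lower in AngII+QDG, beside 379 and 319 of all transcripts tested, and the median share difference was 0.12 beside 0.03, on the log2 scale. A median of 0.04 in level, on the log2 scale, stood beside -0.01 for all transcripts tested.

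The 3 smallest p in each direction are described by value. Tm9sf4-209, of a transmembrane protein (ENSMUST00000149390, chr2:153202134-153210466), had 1.72, 2.55, 1.62, 0.346 and 1.31 FPKM in Control, 0.786, 0.0842, 0.130, 0.196 and 0.257 in AngII, with 1.98, 1.21, 2.69, 4.02 and 2.16 in AngII+QDG, and AngII and AngII+QDG did not overlap (a difference of 1.37 ± 0.26, SE, with an adjusted p of 0.281). Triobp-211, of an actin-bundling protein (ENSMUST00000229535, chr15:79001982-79005289), had 0.946, 1.67, 0.897, 1.64 and 0.0203 FPKM in Control, 0.0523, 0.0448, 0.0474, 0.0581 and 0.0378 in AngII, with 1.27, 0.696, 1.63, 0.602 and 2.08 in AngII+QDG. It was near 0 in all 5 AngII libraries and in Control 5, and the difference was 1.06 ± 0.25 (SE; adjusted p = 0.507) in level and 2.42 ± 0.37 (SE; adjusted p = 0.179) in share. Ip6k1-203, of an inositol hexakisphosphate kinase, had 0.0421 to 0.639 FPKM in AngII and 0.728 to 1.59 in AngII+QDG (adjusted p = 0.654). Lower in AngII+QDG were Zcrb1-204, given above, Wsb1-206 and Wdr73-205. Wsb1-206, of a ubiquitin ligase subunit, had 2.25, 0.984, 3.27, 2.13 and 3.75 FPKM in AngII, with 0.221, 1.80, 0.180, 0.0166 and 0.175 in AngII+QDG (adjusted p = 0.507), and AngII+QDG 2 lay inside the AngII range. Wdr73-205 had 0.431 to 1.11 and 0.0300 to 0.502 FPKM (adjusted p = 0.655).

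In share, Smpd2-204, of a neutral sphingomyelinase, took 7.42, 6.44, 6.54, 5.96 and 7.36% in AngII, with 24.1, 9.49, 13.3, 20.4 and 17.3% in AngII+QDG with no overlap (adjusted p = 0.516). Msl3-204, of a chromatin complex, took 5.71, 33.4, 28.5, 38.3 and 49.2% and 0.774, 4.49, 12.6, 6.94 and 2.24% (adjusted p = 0.516), with AngII 1 inside the AngII+QDG range. Hspa8-207 and Oaz2-205 completed the lower set and show the pattern described next.

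Some retained intron transcripts were present in some libraries of a group and nearly absent from others. Hspa8-207, of the constitutive chaperone Hsc70 (ENSMUST00000140984, chr9:40801287-40803379), had 0.886, 0, 0.616, 0.0119 and 0 FPKM in Control, 0.706, 0.407, 72.7, 102 and 81.7 in AngII and was listed at 0 in all 5 AngII+QDG libraries. The other Hspa8 transcripts had 342 to 467 FPKM in AngII and 353 to 417 in AngII+QDG, and the share had an adjusted p of 0.622. Oaz2-205, of an inhibitor of polyamine synthesis (ENSMUST00000137696, chr9:65676579-65688547), had 10.1, 0.0275, 0.0135, 0.0125 and 0.0251 FPKM in Control, 13.1, 5.94, 8.96, 11.02 and 9.97 in AngII, with 11.3, 0.0119, 0.0148, 0.0177 and 0.0125 in AngII+QDG. It was high in all 5 AngII libraries and in Control 1 and AngII+QDG 1, and in those 7 libraries the other transcripts of the gene were at 1.79 to 25.5 FPKM, against 14.02 to 47.7 in the other 8. The adjusted p were 0.104 and 0.547 for the 2 comparisons with AngII.

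Counted with a measure chosen after the values were seen, the highest library of a group was at least 10 times the lowest, at a highest value of at least 1 FPKM, while the sum of the gene varied under 2-fold, in 271 of 1091 eligible retained intron transcripts (24.8%) in Control, 356 of 1938 (18.4%) in AngII and 323 of 1957 (16.5%) in AngII+QDG. Protein-coding transcripts showed it in 26.0%, 20.6% and 20.7% of eligible cases, at shares no lower than those of the retained intron transcripts in any group. Among all called transcripts, whether eligible or not, 2 of 60 in AngII and 7 of 193 in AngII+QDG met it in either group compared, and 2 of the 22 called in share. Hspa8-207 met this measure in AngII alone, and Oaz2-205 met it in no group.

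**Figure D5:**
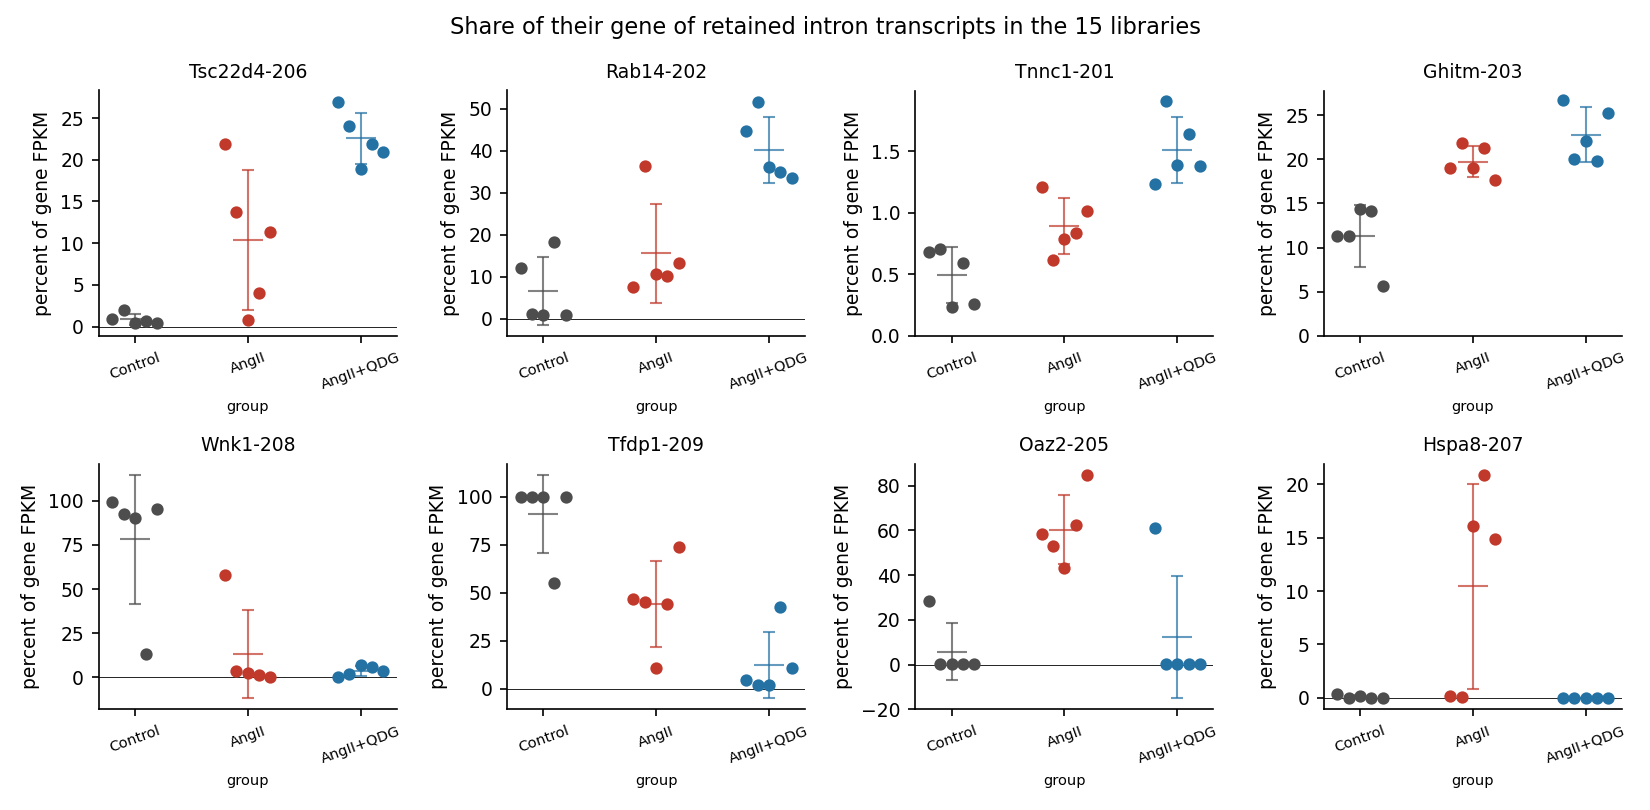
Share of the gene (percent of the FPKM of its transcripts listed in every file) for 8 retained intron transcripts in the 15 libraries, by group, in replicate order with the mean and the SD of 5. The upper row shows rises in AngII+QDG, the lower row the falls of Wnk1-208 and Tfdp1-209 and the all-or-none values of Oaz2-205 and Hspa8-207.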

How the data were processed

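The authors deposited 1 table of values per transcript for each of the 15 libraries, taken to be FPKM from the values themselves, since the headers name no unit. GRCm38 and limma are named by the submitters' processing notes. The aligner, the quantifier and the annotation release were not given in the sources used here. Hearts gave total RNA by Trizol, followed by rRNA depletion and an NEB Next Ultra kit, per the labels' protocols. The AngII+QDG files list partly other transcripts than the rest, so only the 29996 listed in all 15 were used, 22463 of them with a GENCODE M21 name. Groups came from the labels.

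FPKM times length fell on whole steps of each library (within 0.1 of a whole number for 99.4 to 99.6% of the retained intron transcripts above 0), which gave 51600000 to 78300000 fragments per library (rounded to 100000). For levels, limma 3.58.1 in R 4.3.3 was fitted to log2(FPKM + 1) of 28475 transcripts that reached 0.5 FPKM in 5 or more libraries (trend and robust, 1 fit of 15 libraries, 12 residual degrees of freedom). Log2 differences on this scale understate the change of low transcripts. Shares were tested as log2 of the transcript over the other transcripts of its gene, 0.5 FPKM added to each, for 14330 transcripts of genes with at least 2 listed transcripts and a mean of at least 1 FPKM. The Benjamini-Hochberg adjustment ran over all transcripts tested, with a threshold of 0.05. Introns are those spliced out of a coding transcript in GENCODE M21 and at least 50 nt long, with sequence from the GENCODE M21 transcripts. Python 3.11.15, pandas 2.3.3, numpy 2.4.6 and matplotlib 3.10.9 were used, and the fits were tested on simulated data.

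The members and lists were chosen with earlier results of these data known. Named were, per comparison and readout, the 6 called transcripts of largest difference in each direction where the groups did not overlap and the higher group averaged 1 FPKM or more, or the 3 of smallest p where fewer than 3 were called, leaving out predicted and clone-based gene models. Also named were the 8 of highest mean FPKM, the 6 of highest mean share in genes of at least 5 FPKM, and up to 6 splicing-list transcripts of highest mean FPKM. Called list members outside this rule were named after their values were seen. A few transcripts that the rule names are not reported here. Alternatives covered the filter, pseudocounts, scaling, array weights, recovered fragments (voom), diffSplice, the share's denominator, the groups fitted, a replicate block, the short-minus-long balance and left-out libraries.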

Additional observations from a re-analysis of the deposited data

Results flagged for a closer look

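Of 193 groups of 5 libraries checked, 30 held a library whose gap to its nearest neighbour was over 0.71 of the whole range of the group. Chance flags about 1 in 20 such groups where values are normally distributed, and the rate for these FPKM values and shares was not tested. Control 1 was the highest of its group for Hmgn2-212 at 1.42 FPKM (the next at 0), Hnrnpl-203 at 1.39 FPKM (the next at 0.315), Ing4-207 at 4.67% of its gene (the next at 0) and Oaz2-205 at 28.3% of its gene (the next at 0.179). Control 2 was the highest of its group for Tsc22d4-206 at 1.99% of its gene (the next at 0.841). Control 2 was the lowest of its group for Pcbp2-229 at 0.713 FPKM (the next at 1.24). Control 3 was the highest of its group for Eif5-210 at 0.235 FPKM (the next at 0.0726) and H2-Ke6-207 at 11.96 FPKM (the next at 6.76). Control 4 was the highest of its group for Ptpn11-203 at 0.0147 FPKM (the next at 0), Rpl18-210 at 8.60 FPKM (the next at 0.319), Tardbp-225 at 0.815 FPKM (the next at 0.1999), Usp15-209 at 3.29% of its gene (the next at 0.830) and Wnk1-206 at 0.316% of its gene (the next at 0.00932). Control 4 was the lowest of its group for Pik3c2a-207 at 52.8% of its gene (the next at 96.3), Tfdp1-209 at 54.9% of its gene (the next at 100) and Wnk1-208 at 13.3% of its gene (the next at 90.0). Control 5 was the lowest of its group for Triobp-211 at 0.237% of its gene (the next at 10.7). AngII 1 was the highest of its group for Rpl18-210 at 16.2 FPKM (the next at 12.1), Tm9sf4-209 at 0.786 FPKM (the next at 0.257) and Tm9sf4-209 at 8.88% of its gene (the next at 2.87). AngII 2 was the highest of its group for Zfp326-205 at 5.15% of its gene (the next at 0). AngII 4 was the highest of its group for Camk2d-225 at 0.585 FPKM (the next at 0.407). AngII+QDG 1 was the highest of its group for Oaz2-205 at 61.1% of its gene (the next at 0.0443), Rbm39-205 at 2.97 FPKM (the next at 0.959), Srsf1-206 at 5.06 FPKM (the next at 1.74), Srsf2-203 at 7.03 FPKM (the next at 5.92) and Tpm1-217 at 11.8 FPKM (the next at 4.23). AngII+QDG 2 was the highest of its group for Wdr73-205 at 0.502 FPKM (the next at 0.0857) and Wsb1-206 at 1.80 FPKM (the next at 0.221). AngII+QDG 4 was the highest of its group for Tfdp1-209 at 42.7% of its gene (the next at 10.7). Control 4 is the library set apart in 8 of the 17 Control groups listed.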

How the results depend on the processing

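The numbers of retained intron transcripts called moved with single Control and treated libraries and with the groups and covariates fitted. For levels in AngII against Control, where the count was 60, it was 9 with only the 2 groups fitted, 6 with a replicate block, 1 with the short-minus-long balance as covariate, 1 without Control 3 and Control 5, and 5 to 152 with 1 library left out. For levels in AngII+QDG against Control, where it was 193, it was 127 at a mean of at least 1 FPKM, 80 with 2 groups, 99 with the replicate block, 0 with the balance, 21 without Control 3 and Control 5 and 84 to 280 with 1 library left out. Recovered fragments with voom gave 79 and 168, array weights 54 and 136. With 1 library left out, the lowest counts came without a treated library, 5 without AngII 4 and 84 without AngII+QDG 1. Leaving out Control 3 and Control 5 together also makes the Control group smaller. The cause of these differences was not tested. Calls over all transcripts under these alternatives, and under those for shares below, are not given here. For levels in AngII+QDG against AngII, the count was 0 under every alternative run.

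For shares in AngII against Control, where the count was 0, it was 7 with the arcsine square root, 2 with array weights, 1 with all listed transcripts and 4 with coding transcripts as denominator, 63 with diffSplice, 1 with no filter, 3 and 2 with pseudocounts of 0.1 and 1, 3 without Control 3 and Control 5, and 0 to 17 with 1 library left out. For AngII+QDG against AngII, where it was 0, it was 1 with array weights, 4 with diffSplice, 1 without Control 3 and Control 5 and 0 to 1 with 1 library left out. For AngII+QDG against Control, where it was 22, it was 46 with the arcsine square root, 9 with array weights, 98 with diffSplice, 13 at a mean of at least 1 FPKM, 2 with 2 groups, 1 with the replicate block, 0 with the balance, 4 without Control 3 and Control 5, and 2 to 47 with 1 library left out.

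Libraries of the same number did not deviate together (correlations of -0.04 to 0.04 over 15 pairs, and of -0.06 to 0.06 over 60 other pairs), and the labels do not pair them. With the replicate block 5 of the 60, 94 of the 193 and 1 of the 22 stayed called. Of 2548 alternatives run for 97 named results, 1 turned direction, the share of Wnk1-206 in AngII+QDG against Control with coding transcripts as denominator (-1.18). Of the 79 called named results, 63 in level and 16 in share, 8 stayed called without Control 3 and Control 5, and 0 with the balance as covariate, which does not overlap between Control and the treated groups. Those 8 were the levels of Tsc22d4-206, Tnnt2-215, Myh6-204, Nexn-206, Tnnc1-201, Camk2d-225, Rbm25-206 and Ghitm-203 in AngII+QDG. Of the 63 in level, 52 stayed called under scaling to a common median and 37 under quantile normalization. At a median of 33 to 82 fragments per transcript and library, changes in low transcripts may not be detectable.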

Other observations

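Transcripts that hold a whole coding intron and those that hold none were called in 1.52% against 1.9% in AngII and 4.57% against 6.35% in AngII+QDG, both against Control. By length, the median difference in AngII was 0.20 over transcripts longer than 2000 nt and 0.00 over those of up to 600 nt, on the log2 scale. Neither contrast was tested, nor was the part of the short-minus-long balance, in which Control lay above both other groups.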
